A study of Mus musculus with 4 samples.

Results

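The enzymes described here are 8 of the pathway that makes cholesterol: Mvk, Idi1, Fdps, Fdft1, Sqle, Cyp51, Msmo1 and Sc5d. They were found through the probe sets whose platform gene symbol is one of these names, which gave 13 of the 12488 probe sets on the array. Of the 8 genes, 5 had 1 probe set, 2 (Mvk and Sc5d) had 2, and Fdps had 4. In all, 10 of the 13 were bright enough to test, with at least 1 for every gene. The genes were chosen with earlier results of these data known, so a direction shared among them is not independent evidence.

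Total RNA came from the CA1 area of the hippocampus in young male C57BL/6J mice, an inbred strain. The 4 samples were all controls, handled by an experimenter and otherwise untreated. They were taken 1, 2, 4 and 6 h after experimental mice, not analysed here, had been given their last shock. With 1 array per hour, a difference between hours cannot be told apart from one between samples, and the number of mice behind a sample is not stated.

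Cholesterol is built from acetyl-CoA through mevalonate, isoprenoid phosphates, squalene and lanosterol. The proteins INSIG and SCAP sense the sterol content of the endoplasmic reticulum, and when sterol is low they release SREBP transcription factors, which raise the transcription of most enzymes of the pathway as a group. The brain makes nearly all its own cholesterol, because lipoproteins of the blood do not cross the blood-brain barrier. Oligodendrocytes use it for myelin, and astrocytes pass it to neurons on particles that carry apolipoprotein E. The question put to the 8 enzymes was whether they fell together from 2 to 6 h.

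Signals were linear intensities that the authors appear to have scaled to a common mean on each array. A signal is compared only with that of the same probe set on another array. Values under a floor of 36.8 were raised to it before log2 was taken, and a probe set was tested where its mean log2 reached that of a signal of 116.4. This left 7237 probe sets and 5546 genes, each gene entering gene counts through its tested probe set with the highest mean. CA1 markers were present, such as Wfs1, which read 2293, 1877, 2484 and 2508 on the 1, 2, 4 and 6 h arrays. The 2 h array stood apart in its Gapdh ratio: Gapdh control probes at the 3' end read 1.08 times those at the 5' end there, a measure of RNA quality, against 4.10, 3.62 and 3.95 at 1, 4 and 6 h. The same ratio for beta-actin was 2.27, 1.72, 2.59 and 2.93, lowest at 2 h too but closer to the others.

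Promoter sequences are shown because SREBP acts on these genes through short promoter elements, together with NF-Y and Sp1. RefSeq's promoter table, on build GRCm38.p6, held 5 of the 8 enzymes, with 250 bases before to 50 after the transcript start. The 3 shown are Cyp51, the lowest at 6 h against 2 h of the 5, Mvk, whose signal at 6 h was close to that at 2 h, and Hmgcs1, an enzyme upstream of Mvk and no member, which holds the classical sterol element. Capitals mark matches, on either strand, to 4 motifs: the sterol regulatory element TCACNCCAC, a looser form of it, ATCACNNCA, chosen after the promoters were read, the CCAAT box CCAAT, which NF-Y binds, and the Sp1 box GGGCGG.
Cyp51 promoter, chr5:4104648-4104947, minus strand: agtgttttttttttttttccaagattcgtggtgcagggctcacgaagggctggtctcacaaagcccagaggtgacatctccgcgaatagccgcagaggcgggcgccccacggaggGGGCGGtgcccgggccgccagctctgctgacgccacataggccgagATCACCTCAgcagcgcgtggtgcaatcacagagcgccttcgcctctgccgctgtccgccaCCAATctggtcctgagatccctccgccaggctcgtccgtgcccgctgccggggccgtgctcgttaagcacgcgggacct
Mvk promoter, chr5:114444019-114444318, plus strand: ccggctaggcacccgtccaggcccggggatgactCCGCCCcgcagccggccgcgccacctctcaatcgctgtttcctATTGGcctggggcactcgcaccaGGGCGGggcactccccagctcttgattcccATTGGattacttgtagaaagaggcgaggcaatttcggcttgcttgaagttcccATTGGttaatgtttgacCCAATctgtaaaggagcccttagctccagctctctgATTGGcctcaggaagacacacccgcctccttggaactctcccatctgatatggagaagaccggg
Hmgcs1 promoter, chr13:119690101-119690400, plus strand: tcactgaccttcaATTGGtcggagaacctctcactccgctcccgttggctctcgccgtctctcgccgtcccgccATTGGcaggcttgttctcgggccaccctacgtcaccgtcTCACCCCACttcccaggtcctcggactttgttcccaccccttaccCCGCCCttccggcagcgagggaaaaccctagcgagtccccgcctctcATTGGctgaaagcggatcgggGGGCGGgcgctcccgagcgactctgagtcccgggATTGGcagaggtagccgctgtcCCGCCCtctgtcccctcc

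In the Cyp51 promoter the looser sterol element reads ATCACCTCA, with 1 Sp1 box before it and 1 CCAAT box after it. The Mvk promoter held 5 CCAAT boxes and 2 Sp1 boxes and neither sterol element. The Hmgcs1 promoter held the sterol element TCACCCCAC together with 4 CCAAT boxes and 3 Sp1 boxes. Over the 5 promoters of the enzymes, CCAAT and Sp1 boxes were found in all 5, against 37.4% and 35.7% of the 32851 promoters in the table. The strict sterol element was found in 0 of the 5 and in 1.24% of all promoters. The looser one was found in 2 of the 5 (Cyp51 and Msmo1, where it overlaps a CCAAT box) and in 2.77% of all. Because the looser form was chosen after these promoters were read, its count among them is not a test of enrichment. A match is a run of letters in this window and not a measured binding site.

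On the brightest tested probe set of each gene, Sqle, Fdft1, Fdps and Cyp51 were 1.49 to 2.16 times lower at 6 h than at 2 h. These are steps 3 to 6 of the 8 in pathway order. In the other 4 enzymes, by the same choice of probe set, these hours were at most 1.08 times apart. On their second tested probe sets, Fdps was 2.78 times lower and Sc5d 1.57 times higher. All 8 genes had a lower value at 6 h than at 2 h, where 46.4% of all tested genes did, but Mvk turned to 0.0066 (log2) above after quantile normalization and Sc5d to 0.30 above with its probe sets averaged. The median log2 difference was -0.35 over the 8, against 0.04 over all tested genes. At least 2-fold lower was 1 of the 8, Sqle, against a background of 5.52% of genes, and at least 1.5-fold lower were 3 (Sqle, Fdft1 and Fdps), against 13.0%. No slope passed the test: limma called 0 of the 10 tested probe sets over 1 to 6 h and 0 over 2 to 6 h, as it called 0.00% of all probe sets in both fits. On simulated data the 2 to 6 h fit called none of the slopes put in, and the 1 to 6 h fit missed many. Here and in the lists below, 0 calls therefore do not show that signals were stable. In bulk tissue, fewer cells of a type and less RNA per cell cannot be told apart.

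**Figure D1:**
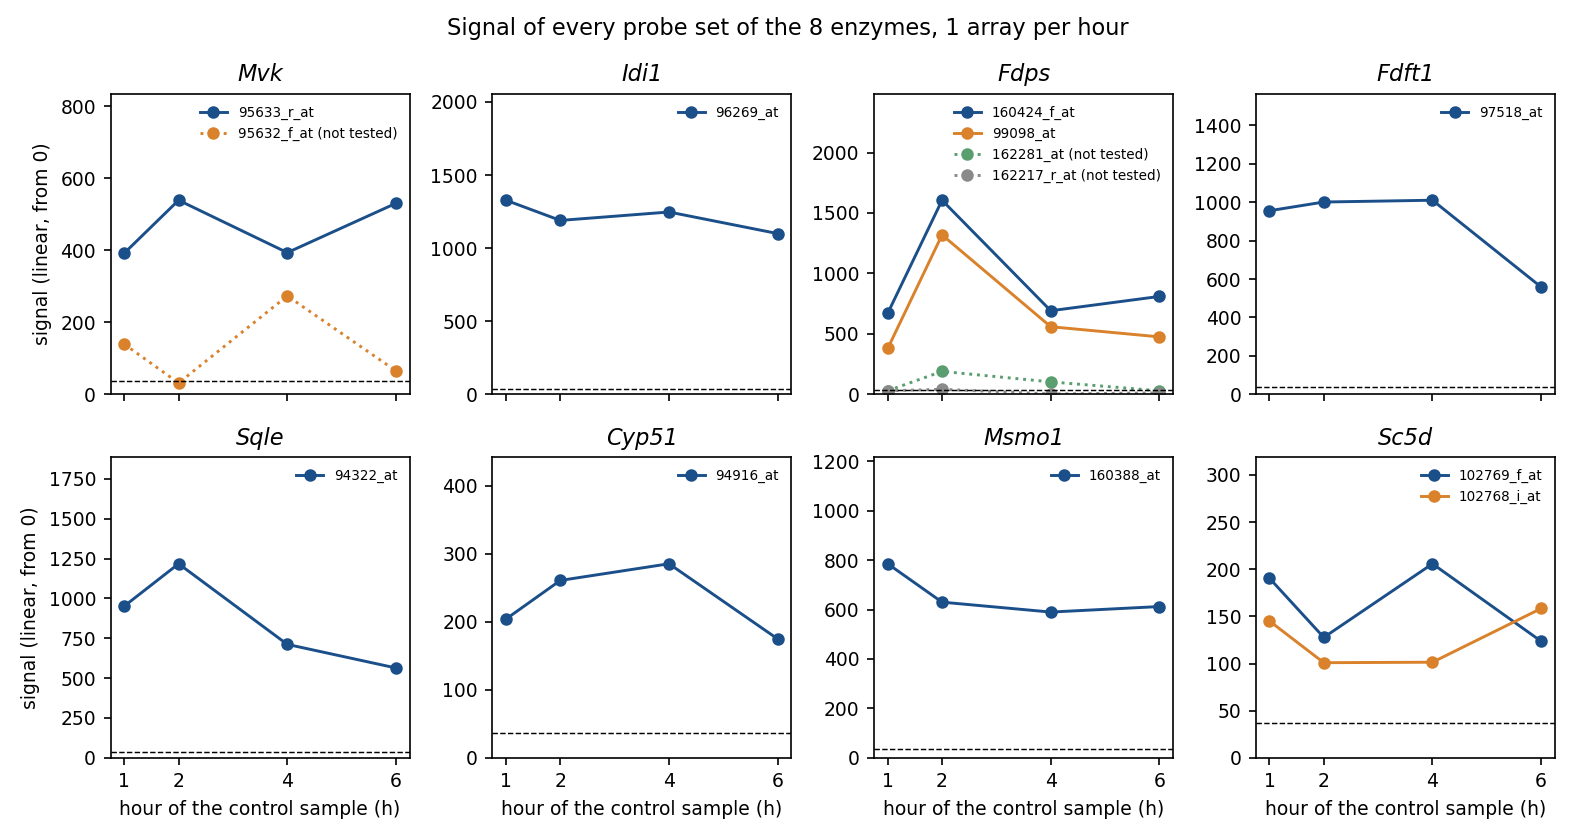
Signal (linear axis from 0, scaled separately in each panel) of every probe set of the 8 enzymes against the hour of the control sample, 1 array per hour, with solid lines for tested and dotted lines for untested probe sets and a dashed line at the floor of 36.8. Sqle goes from 1218 at 2 h to 564 at 6 h, Fdft1 stays near 1001 until 4 h and is 558 at 6 h, and both tested Fdps probe sets peak at 2 h.

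The upstream enzymes turn mevalonate into isoprenoid units. Mevalonate kinase, Mvk, adds the phosphate that commits mevalonate to the pathway, and had signals of 392, 539, 394 and 531 at 1, 2, 4 and 6 h on its tested probe set 95633_r_at. It was high at 2 and 6 h and low at 1 and 4 h, with values at 6 h and 2 h only 1.02 times apart. Its other probe set, 95632_f_at, gave 139, 31.4, 273 and 65.1 and was too dim to test. The pair ran opposite ways, since 95632_f_at was lowest at 2 h, under the floor, and highest at 4 h. In the platform's naming, the endings _f_, _r_ and _i_ mark probe sets that share probes with other sequences or fell short of the usual design rules.

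Idi1, the isomerase that interconverts the isoprenoid units, varied least of the 10 tested probe sets. Its signals were 1328, 1189.6, 1247 and 1099.5, a range of 1.21 times, with the highest at 1 h and the lowest at 6 h. The log2 difference of 6 h against 2 h was -0.11, inside the central 50% of all tested genes, which ran from -0.30 to 0.34. Within a 1.5-fold range over the 4 arrays lay 3 of the 8 genes, Mvk, Idi1 and Msmo1, against 48.8% of all tested genes.

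Farnesyl diphosphate synthase, Fdps, joins isoprenoid units into the precursor of both squalene and the lipid anchors of small GTPases. Its probe set 160424_f_at had signals of 670.2, 1605, 691 and 809.7, and 99098_at had 379, 1319, 559 and 475. Both had 1 high array, the 2 h one, and the other 3 arrays lay together well below it. Against 1 h, the 2 h signals were 2.40 and 3.48 times as high, and 1 of the 8 genes was at least 2-fold higher at 2 h, against 5.70% of all tested genes. The remaining probe sets were too dim to test. Probe set 162281_at gave 29.5, 189, 103 and 28.8, under the floor at 1 and 6 h. Probe set 162217_r_at gave 28.6, 41.4, 2.5 and 11.7, under the floor on 3 arrays and close to it at 2 h, so its values have no order.

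The 2 h excess of Fdps sits on the array whose Gapdh ratio was 1.08, and the part of RNA quality in the excess was not tested. Without the 2 h array the direction turned: 6 h stood above 1 h by 0.27 (log2) on 160424_f_at and by 0.33 on 99098_at. Between 4 and 6 h the pair differed in direction, with log2 differences of 0.23 and -0.23. The slope over 2 to 6 h was -0.37 ± 0.09 log2 per hour (limma's moderated SE, 3 arrays) on 99098_at, with a limma adjusted p of 0.439. On 160424_f_at it was -0.25 ± 0.11, with a limma adjusted p of 0.579. Limma draws this SE largely from the spread of all tested probe sets, here and for the slopes below. It is therefore not the scatter of a probe set's own arrays. Probe sets 160424_f_at and 99098_at share 1 gene and are not replicates of each other.

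Squalene synthase, Fdft1, makes the committed precursor of sterols from farnesyl diphosphate. Its signals were 956, 1001, 1011 and 558. The arrays at 1, 2 and 4 h lay within 1.06 times of each other, and the 6 h array stood alone below them, 1.71 to 1.81 times lower. The log2 difference of 6 h was -0.78 against 1 h, -0.84 against 2 h and -0.86 against 4 h, so its size did not rest on the 2 h array. Against 1 h this lay at percentile 4.27 of all 5546 tested genes and at percentile 0.541 of the 1849 brightest. The slope was -0.15 ± 0.07 log2 per hour over 4 arrays, with a limma adjusted p of 0.9996.

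Squalene epoxidase, Sqle, adds the oxygen that lets squalene close into rings and is a control point of the pathway. Its signals were 952, 1218, 712 and 564. It was highest at 2 h, lower at 4 h and lowest at 6 h, and it was the 1 gene of the 8 to step down from 2 to 4 to 6 h, an order that 17.9% of all tested genes had. The second probe set of Fdps, 99098_at, had that order too. At 6 h Sqle was 2.16 times lower than at 2 h and 1.69 times lower than at 1 h, at percentiles 4.45 and 4.60 of all tested genes. It had the lowest p of the 10 probe sets over 1 to 6 h, an unadjusted limma p under 0.05 with an adjusted p of 0.9996. The slope was -0.19 ± 0.07 log2 per hour (limma's moderated SE, 4 arrays). Over 2 to 6 h the slope was -0.28 ± 0.08, with a limma adjusted p of 0.452. Without the 2 h array it was -0.15 ± 0.07, with a limma adjusted p of 0.643. The SE of that fit took nothing from the scatter of the probe set itself.

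Lanosterol demethylase, Cyp51, starts the conversion of lanosterol. Its signals were 204, 261, 285.5 and 175, highest at 4 h and lowest at 6 h. It was 1.49 times lower at 6 h than at 2 h and 1.63 times lower than at 4 h, but only 1.17 times lower than at 1 h. Its slope over 2 to 6 h was -0.14 ± 0.13 log2 per hour, with a limma adjusted p of 0.805. Its promoter, printed above, holds the looser sterol element, a form chosen after the promoters were read, and not the strict one.

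Methylsterol monooxygenase, Msmo1, begins the removal of the remaining methyl groups. Its signals were 785, 630, 589.9 and 612. The 1 h array was the high one, and the 2, 4 and 6 h arrays lay within 1.07 times of each other, so the values gave no step from 2 to 6 h. The log2 difference of 6 h was -0.36 against 1 h and -0.04 against 2 h.

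Sc5d, a desaturase of the late steps, was measured by a pair of probe sets that disagreed. Probe set 102769_f_at had signals of 190.5, 128, 206 and 124, high at 1 and 4 h and low at 2 and 6 h. Probe set 102768_i_at had 145, 101, 101 and 158, high at 1 and 6 h. Their log2 differences of 6 h against 2 h were -0.05 and 0.65, and with the pair averaged the difference was 0.30. The direction of Sc5d therefore depended on the probe set used.

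**Figure D2:**
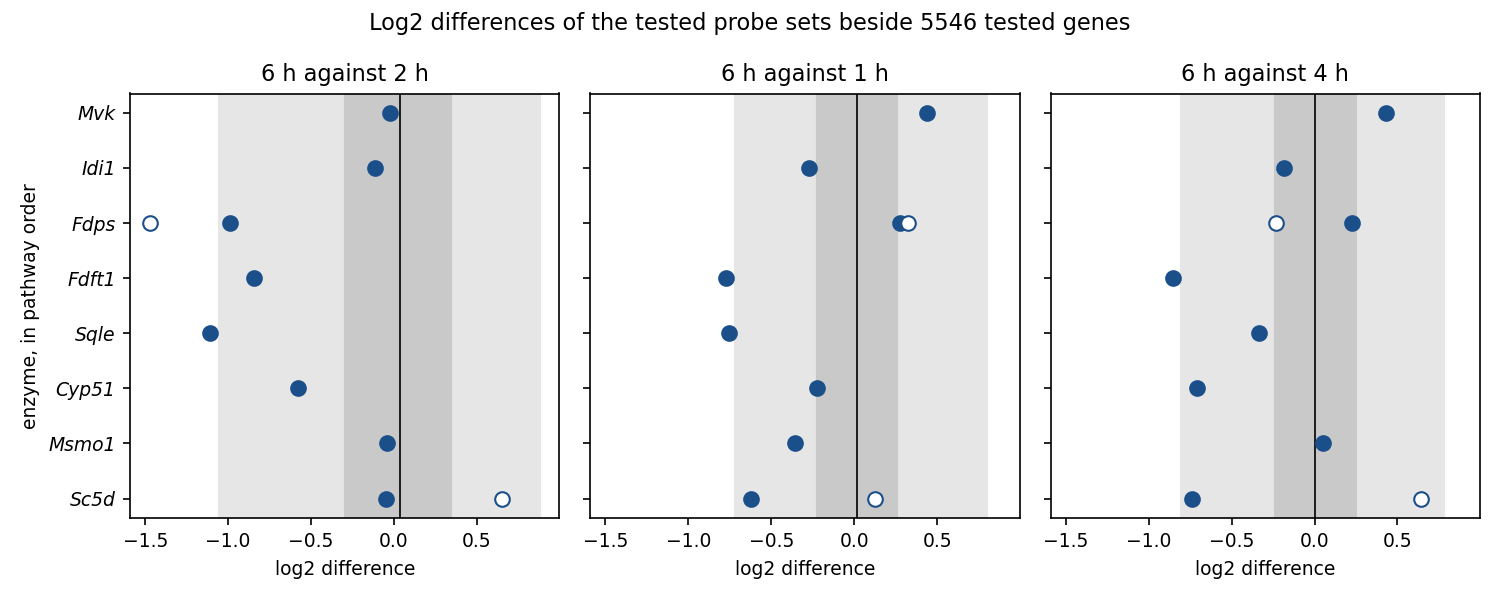
Log2 difference of the 6 h array against the 2, 1 and 4 h arrays (horizontal axis) for the 10 tested probe sets, by enzyme in pathway order, with filled points for the probe set used for the gene and open points for a second one. The dark and light bands hold the central 50% and 90% of 5546 tested genes and the line is their median; Fdft1 lies at -0.84, -0.78 and -0.86 in the 3 panels, while Fdps changes from -0.99 to 0.27 and 0.23.

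Which array was low differed between the enzymes. The 6 h signal was the lowest of the 4 in 5 of the 8 genes (Idi1, Fdft1, Sqle, Cyp51 and Sc5d), against 20.9% of all tested genes. With a margin of at least 1.2-fold under each other array, 2 remained, Fdft1 and Sqle, against 7.55%. With the 2 h array left out, 5 genes had their lowest remaining value at 6 h, against 31.7%. With the probe sets of a gene averaged the count was 4, since Sc5d was then lowest at 2 h.

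Step by step, the enzymes did not move as a block. From 2 to 4 h, 4 of the 8 genes were lower (Mvk, Fdps, Sqle and Msmo1), against 48.0% of all tested genes, and the other 4 were higher. From 4 to 6 h, 5 were lower (Idi1, Fdft1, Sqle, Cyp51 and Sc5d), against 49.7%, and 3 of these by at least 1.5-fold (Fdft1, Cyp51 and Sc5d), against 8.98%. The place of Sc5d rested on 1 probe set. On 102768_i_at its log2 difference of 6 h against 4 h was 0.64, and with the pair averaged it was -0.05. Sqle was lower at both steps, as was Fdps on 99098_at but not on the probe set used for the gene. Against 1 h, 6 of the 8 were lower at 6 h, against 48.1%, with Mvk and Fdps higher. Sc5d was among the lower ones, but on 102768_i_at it was higher by 0.13 (log2).

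The tests of a trend had few arrays behind them. Over all 4 arrays, 8 of the 10 tested probe sets had a slope below 0, against 46.8% of all 7237, and 1, Sqle, had an unadjusted p under 0.05, against 2.71%. Over 2 to 6 h, with 1 residual degree of freedom, 9 had a slope below 0, against 46.5%, and 3 (Fdps on 99098_at, Sqle and Fdft1) had an unadjusted p under 0.05, against 8.72%. These counts are of probe sets, and Fdps and Sc5d enter with 2 each. As the hours 2, 4 and 6 are evenly spaced, the sign of this slope is that of 6 h against 2 h. The count of 9 therefore adds nothing to that difference. Without the 2 h array limma called 32 of 7237 probe sets, 0.442%, and 0 of these were of the 8 enzymes. In that fit limma gave its prior infinite weight, so the scatter of a probe set's own arrays did not enter. Its calls are therefore not comparable with those of the other fits. The adjusted p of the members ranged from 0.439 to 0.994 over 2 to 6 h and was 0.9996 for each over 1 to 6 h.

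The other enzymes of the pathway lay on both sides at 6 h against 2 h. Of 13 others listed, 9 were in the table used here and 6 were tested, and the median log2 difference of 6 h against 2 h was 0.01, with 3 lower and 3 higher. Hmgcs1, which makes HMG-CoA upstream of mevalonate and whose sterol element is printed above, had 1571, 1183, 1159 and 1440. It was lower at 2 and 4 h than at 1 and 6 h, a log2 difference of 0.28 for 6 h against 2 h, while Sqle over the same arrays had -1.11. Tm7sf2, a reductase of the late steps, had 493, 505, 481 and 576. The lowest of the 6 were Nsdhl, a dehydrogenase that acts with Msmo1, with 602, 519.8, 520.2 and 473 on its brightest probe set, and the decarboxylase Mvd with 207.5, 230.4, 94.5 and 216.5. On its further tested probe sets Nsdhl had log2 differences of 0.17 and 0.04 for 6 h against 2 h, so its direction depended on the probe set. Lbr, the lamin B receptor, which is also a sterol reductase, had 168, 107, 178 and 105. It was low at 2 and 6 h and high at 1 and 4 h, so its log2 difference of 6 h was -0.02 against 2 h but -0.67 against 1 h and -0.76 against 4 h, an order like that of Sc5d on 102769_f_at. The 6 h signal was the lowest of the 4 arrays in 2 of the 6. None was 1.5-fold lower at 6 h than at 2 h, and limma called 0 of the 6 in either direction.

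**Figure D3:**
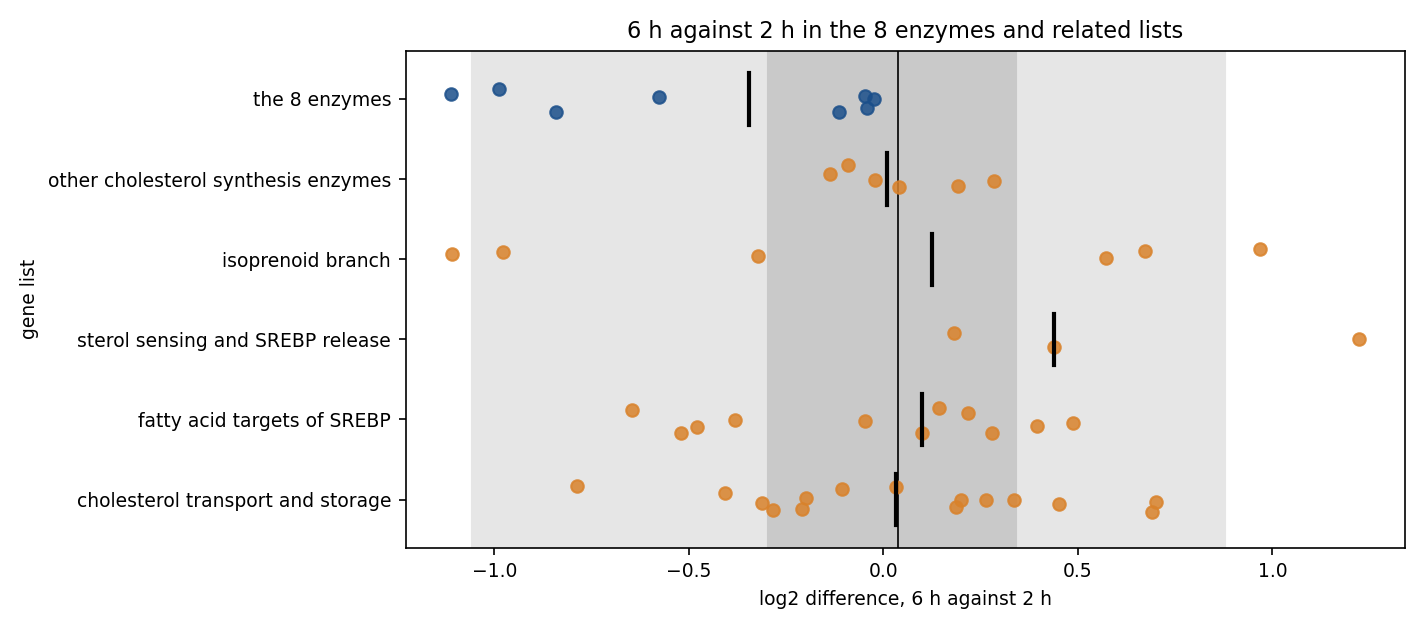
Log2 difference of 6 h against 2 h (horizontal axis) for each tested gene of the 8 enzymes (blue) and of 5 related lists (orange), with a thick bar at the median of each list, the dark and light bands holding the central 50% and 90% of all tested genes and the thin line at their median. The 8 enzymes lie between -1.11 and -0.02, and the 6 other synthesis enzymes between -0.14 and 0.28. The 8 enzymes and the lists were chosen with earlier results of these data known.

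Genes of sterol sensing and SREBP release were thinly covered. Of 14 listed for this theme, 4 were in the table used here and 3 were tested, and all 3 were higher at 6 h than at 2 h, where 53.5% of all tested genes were. Srebf1, the SREBP gene best known for fatty acid synthesis, had 1531, 1199, 1531 and 1625, low at 2 h alone. Mbtps1, the protease that starts SREBP release, had 723.5, 833, 1130.2 and 946, and Erlin1, a protein of the endoplasmic reticulum that takes part in sterol-regulated protein degradation, had 293, 227, 240.3 and 529. A second Erlin1 probe set, too dim to test, ran the other way, with 75, 151, 131 and 35.2. Insig1, which retains SREBP when sterol is high, had 68.4, 29.3, 6.7 and 11.0, too dim to test, and Srebf2 was not analysed here. Limma called 0 of the 3.

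Fatty acid synthesis genes that SREBP also drives lay on both sides. Of 14 listed, 11 were tested, 5 lower and 6 higher at 6 h than at 2 h, with a median log2 difference of 0.10 and 0 called by limma. The lowest were the elongase gene Elovl5, with 1079.9, 1586, 1055 and 1013, and Acly, which supplies cytosolic acetyl-CoA, with 1317, 1605, 1361 and 1119. Both were highest at 2 h, as Sqle and Fdps were. The highest were Thrsp, a lipogenic regulator, with 695, 504, 649.9 and 706, and the desaturase gene Scd1, with 3397, 2215, 2721 and 2910.3 on its brightest probe set, both lowest at 2 h. A second tested Scd1 probe set had 2993, 2803, 2092 and 3193, lowest at 4 h.

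The isoprenoid branch, which uses the product of Fdps to make protein anchors, had 6 of 9 genes tested, 3 lower and 3 higher at 6 h than at 2 h, with a median of 0.13. Ggps1, which lengthens farnesyl diphosphate, had 284, 534, 377 and 248 on 1 probe set and 239, 249, 287 and 299 on the other, so its direction depended on the probe set. The carboxyl methyltransferase gene Icmt had 257, 286, 269 and 145, with 6 h lowest, as for Fdft1. The farnesyltransferase subunit gene Fntb had 88.3, 141, 347.5 and 275.5, and Rabggtb, a subunit of the transferase for Rab proteins, had 951, 581, 530.5 and 925. Limma called 0 of the 6, and Fntb, higher at later hours, was the gene among the 5 related lists with an unadjusted p under 0.05 over 1 to 6 h.

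Among genes of cholesterol transport, storage and removal, 15 of 23 were tested, 7 lower and 8 higher at 6 h than at 2 h, with a median of 0.03 and 0 called by limma. The lowest were the lipid transporter gene Abca2, with 1112, 1812, 1061 and 1051, and Pltp, the phospholipid transfer protein, with 728, 784, 778.5 and 591. The highest were lipoprotein lipase, Lpl, with 426, 209, 242 and 339, and the cholesterol exporter gene Abca1, with 366, 229.5, 331 and 370.4. On these probe sets Abca2 stood high, and Lpl and Abca1 low, on the 2 h array. A second tested Lpl probe set had 115, 119, 155 and 103, lowest at 6 h. A second Abca1 probe set, too dim to test, had 63.6, 219.6, 140 and 41.3, highest at 2 h.

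Among the glia that make most cholesterol, most oligodendrocyte markers were lower at 6 h than at 2 h. Astrocyte markers lay on both sides. Of all tested genes 46.4% were lower, the share to set beside the counts here and in the remaining marker lists. Of 13 oligodendrocyte and myelin markers 8 were tested, 6 of them lower at 6 h than at 2 h with a median of -0.30, and their summed signal ran from 23841 at 1 h to 30108.5 at 4 h, with 24080 at 2 h and 24550 at 6 h. The myelin gene Mbp had 7791.5, 9350, 7979 and 7387, highest at 2 h. Mobp, another myelin gene, had 11091, 8925, 16716 and 12594 on its brightest probe set, lowest at 2 h. Its other 3 tested probe sets were highest at 2 h, as Fdps was, with log2 differences of 6 h against 2 h of -0.97, -2.09 and -1.86, so the direction of Mobp depended on the probe set. Of 12 astrocyte markers 9 were tested, 4 lower, with a median of 0.03 and summed signals of 29950 to 31037, led by Aldoc (8996, 12280, 9288 and 9831) and Sparcl1 (10792, 7882, 10073 and 9225). Of 10 microglia markers 7 were tested, 4 lower, with a median of -0.35 and summed signals of 7875 to 8918. Choroid plexus and ependyma markers, 4 of 7 tested and 3 lower, had a median of -0.64 and a summed signal of 2237 at 2 h against 993 to 1359 on the other arrays. The part of these cells in the values of the enzymes was not tested.

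The remaining marker lists lay on both sides. CA1 pyramidal markers had a median of 0.24 with 1 of 4 lower, dentate granule cell markers 0.32 with 0 of 3 lower (Prox1, which defines these cells, gave 57.9, 12.5, 17.8 and 18.2 and was not tested), interneuron markers 0.01 with 4 of 9 lower, and endothelial and blood markers -0.08 with 3 of 4 lower. Of liver transcripts, which would show blood or foreign tissue, 2 were tested, with a median of -0.46 set mostly by Ttr, which the choroid plexus also makes (222, 892, 107.5 and 356).

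The mean centred profile of the 8 enzymes was 0.03, 0.21, 0.01 and -0.25 (log2) at 1, 2, 4 and 6 h. From this profile the enzymes themselves had a median root mean square distance of 0.246, against 0.301 for tested probe sets of other genes. The profile was made from these 8 genes, which brings them nearer to it, so the 2 distances are no test of a shared course. The profile is an average, and not a course that each enzyme followed. The tested probe sets nearest to it, by root mean square distance over the 4 arrays, were those of Maoa, a monoamine oxidase (511, 570.3, 499 and 408, distance 0.0138), Dync1h1, the heavy chain of dynein (3060, 3586, 3092.5 and 2580, distance 0.0190), Psmg4, a proteasome assembly factor (729, 836, 704 and 579, distance 0.0240), Dcaf13 (289, 331, 275 and 237, distance 0.0245) and Coq3, an enzyme of ubiquinone synthesis (431, 476, 432 and 346, distance 0.0250).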

How the data were processed

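The deposited table gives linear intensities, 1 for each probe set on each of 4 arrays; the software that made them is not stated in the labels. After 2% was trimmed at each end, array means were all 500.3, so the authors appear to have scaled them, and they were used as deposited. Signals under the pooled 20th percentile (36.8) were set to it, and probe sets whose mean log2 reached the pooled 40th percentile (116.4) were tested. Symbols came from the platform annotation, updated by gene identifier for 10817 of 10833 probe sets with 1 symbol; probe sets with several symbols (396) or none (1193) are not named.

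Slopes of log2 signal per hour were tested with limma 3.58.1 in R 4.3.3 (mean-dependent prior, two-sided, Benjamini-Hochberg over all tested probe sets, threshold 0.05), and the steps were tested on simulated data, where the 2 to 6 h fit called none of the slopes put in and the 1 to 6 h fit missed many of them. Differences between single arrays have no test. All probe sets of the 8 enzymes are named. From each related pathway list the 2 lowest and 2 highest genes at 6 h against 2 h are named, and Hmgcs1, Insig1, Srebf1 and Srebf2 whatever their values; items withheld for evaluation are not reported here. From marker lists up to 2 of the brightest are named, and the 5 nearest profiles. Lbr, the further probe sets of Ggps1, Erlin1, Mobp, Nsdhl, Scd1, Lpl and Abca1 and the markers Prox1 and Camk2a were named after their values were seen. The closing section gives what other settings did, among them quantile normalization, averaged probe sets and single arrays left out. The members and lists were chosen with earlier results of these data known. The number of arrays limits the precision.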

Additional observations from a re-analysis of the deposited data

How the results depend on the processing

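Limma called 0 of the 8 enzymes under every alternative run, with a smallest adjusted p of 0.439 to 1 over the 12 alternatives for 1 to 6 h and 0.118 to 0.645 over the 8 for 2 to 6 h. Over 1 to 6 h, leaving out each array in turn gave 0 to 32 calls among all probe sets, the 32 without the 2 h array. That fit gave limma's prior infinite weight, so its 32 calls ignore the scatter of each probe set's own arrays. Over 2 to 6 h there were 1 call with probe sets averaged and 6 with log2 of hour, in place of 0; the cause was not tested. The count of enzymes at least 2-fold lower at 6 h than at 2 h was 2 in place of 1 with median centring (Fdps passing by a small margin) or with probe sets averaged, 3 at a threshold of 1.5-fold, and 0 for 6 h against 1 h, against 4 h or against the mean of the other 3 arrays. The stepwise count was 2 in place of 1 with probe sets averaged. The count lowest at 6 h was 3 of 6 in place of 5 of 8 with the filter at the 60th percentile, which removes Cyp51 and Sc5d, and 2 with a margin of 1.2-fold. The median difference of the enzymes ranged from -0.48 to -0.35 over its 6 alternatives. The comparison with the 2 h array left out was chosen after seeing the data. No paired analysis was possible because each hour had 1 array.

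These arrays cannot separate the hour from the sample, and signals near the floor have no order.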
